A study of Mus musculus with 12 samples.

Results

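Nnt, Txnrd1, Gpx3 and Prdx6, a set of genes of NADPH supply and antioxidant defence, were examined in the adrenal glands of KK/HlJ (KK) and C57BL/6J (C57) mice. The members were named by function, and every probeset that carried 1 of their symbols was taken. Of the 4 named genes 3 were found, Nnt, Txnrd1 and Gpx3, each with 1 probeset, among 6986 genes in all. No probeset carried the symbol Prdx6, a peroxiredoxin that reduces hydrogen peroxide and phospholipid hydroperoxides, and it was not analysed here. All 3 measured members passed the filter on low values and were among the 4414 genes tested, and each had a mean above the filter level of 4 (log2) in every group.

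The groups were male KK (KK-M), female KK (KK-F), male C57 (C57-M) and female C57 (C57-F) mice, aged 21 weeks, all on standard chow and without a drug treatment, and all put through insulin tolerance and behavioural tests before. KK is an inbred strain used as a polygenic model of obesity and type 2 diabetes, and C57BL/6J carries a deletion of several exons of Nnt as part of its strain background. Adrenal RNA of a group's mice formed a single pool, and the 4 pools were hybridised to 3 arrays each (Affymetrix Mouse Gene 2.0 ST), so n = 3 counts arrays of 1 pool. The p-values therefore cover the spread between arrays and say nothing of the spread between mice. Strain includes every difference in genetic background and adiposity between the 2 strains, which cannot be told apart here.

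Nicotinamide nucleotide transhydrogenase, the product of Nnt, sits in the inner mitochondrial membrane and uses the proton gradient to form NADPH from NADH. In the adrenal cortex mitochondrial NADPH has a double use. It feeds electrons through ferredoxin reductase and ferredoxin to the mitochondrial steroid hydroxylases, and it keeps glutathione and thioredoxin reduced so that peroxides formed during steroid synthesis can be removed. Loss of NNT in humans causes familial glucocorticoid deficiency, and C57BL/6J mice, which lack the intact protein, have been reported to make less corticosterone than mice with a functional gene. The question addressed here was whether transcripts of other redox enzymes are higher in the C57 groups, where Nnt is defective.

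The 12 arrays had median log2 values of 3.88 to 3.99, and the residual SD of a gene was 0.204 in KK-M, 0.16 in KK-F, 0.154 in C57-M and 0.167 in C57-F. The adrenal cortex was represented by 2 measured markers, Cyp11b1 and Cyp11b2, both with group means of 9.10 or more. Markers of other cells differed between groups. The summed level of 5 chromaffin cell markers lay between 12.99 and 13.15 in KK-M and between 12.70 and 12.75 in KK-F, against 12.42 to 12.54 in C57-M and 12.14 to 12.18 in C57-F (log2 of the sum over the list). The 12 hepatocyte markers summed to between 7.83 and 8.74 in KK-M and 7.89 and 7.98 in KK-F, against 10.51 to 10.58 in C57-M and 11.18 to 11.26 in C57-F. Of the 10 skeletal muscle markers 9 had a mean of at least 4 in KK-M and 3 in each other group. In bulk tissue a lower level of a transcript through fewer cells of a type and through less RNA per cell cannot be told apart.

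Nnt was higher in KK than in C57 in both sexes. Its log2 levels were 8.17, 8.23 and 8.36 on the KK-M arrays, against 7.28, 7.06 and 7.47 on the C57-M arrays. In females they were 8.69, 8.56 and 8.50 on the KK-F arrays, against 7.65, 7.61 and 7.61 on the C57-F arrays. All 6 KK values lay above all 6 C57 values, with the lowest KK array (KK-M replicate 1) above the highest C57 array (C57-F replicate 1).

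**Figure D1:**
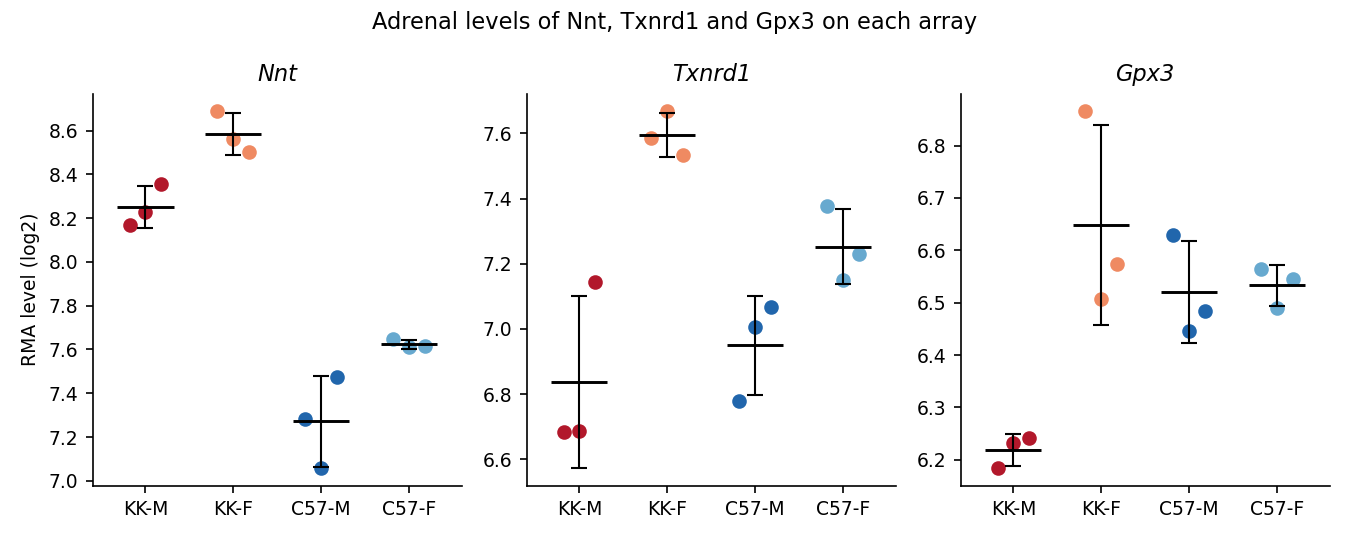
Log2 RMA levels (y axis) of Nnt, Txnrd1 and Gpx3 on each of the 12 arrays by group (x axis), with points for arrays, a bar for the group mean and whiskers for the SD of 3 arrays. The y axes differ between panels and do not start at 0, and Nnt is the gene whose 6 KK points all lie above its 6 C57 points.

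The difference in Nnt was 0.98 ± 0.11 in males (log2 difference ± SE of the fit, 1.97-fold, adjusted p = 1.85e-05) and 0.96 ± 0.11 in females (1.95-fold, adjusted p = 2.14e-05). Genes were called where the fold change was at least 1.4 and the Benjamini-Hochberg adjusted p was under 0.05. KK-M v C57-M called 7.05% of all tested genes higher and 13.4% lower, and KK-F v C57-F called 9.56% higher and 9.06% lower. Within these calls Nnt ranked 76th by size among 311 genes higher in KK-M and 92nd among 422 genes higher in KK-F. Averaged over the sexes the strain difference was 0.97 ± 0.07 (95% interval 0.81 to 1.13, adjusted p = 3.75e-07), for which 6.84% of all genes were called higher and 8.63% lower. The strain difference in males exceeded that in females by 0.02 ± 0.15 (interval -0.30 to 0.34, adjusted p = 0.951).

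Although C57 mice carry the Nnt deletion, the C57 arrays read between 7.06 and 7.65, above the filter level. The sources used here do not place the probes of this probeset relative to the deleted exons. The C57 level therefore cannot be divided into shortened transcript, remaining exons and background of the probes, and a fold change of the intact transcript cannot be given. The chromaffin cell sum moved in the same direction as Nnt between strains and the hepatocyte sum in the opposite direction. The X-zone, the inner cortical zone that regresses in male mice at puberty, had 2 measured markers, Akr1c18 and Thrb. Their sum was higher in KK too, at 6.53 to 7.12 in KK-M and 12.28 to 12.43 in KK-F. In C57-M it was 6.31 to 6.44, and in C57-F 8.85 to 8.95. Between the sexes the X-zone sum was higher in females in both strains, as was Nnt, and the chromaffin cell sum was higher in males. The part of these cells in the Nnt differences was not tested.

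The sex differences of Nnt passed the adjusted p but not the fold threshold in either strain. They were -0.33 ± 0.11 for KK-M v KK-F (interval -0.56 to -0.11, adjusted p = 0.0295) and -0.35 ± 0.11 for C57-M v C57-F (interval -0.58 to -0.12, adjusted p = 0.023). In both strains all 3 male arrays lay below all 3 female arrays.

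In the order of RefSeq genes Nnt lies on chromosome 13. Of its 6 nearest tested neighbours 3 were called higher in KK-F (against 9.56% of all genes) and 0 higher in KK-M (against 7.05%). Mrps30, a subunit gene of the mitochondrial ribosome on the one side, had a strain difference of -0.01 in males and 0.34 in females, and neither was called. Paip1, an activator of translation on the other side, was called lower in KK males (-0.55, adjusted p = 0.00884) and differed by -0.02 in females. Hmgcs1, the cytosolic HMG-CoA synthase of cholesterol synthesis which lies a little further on that side, was higher in KK-F by 1.91 (adjusted p = 8.11e-09) and at 0.07 in males. On the side of Mrps30, Emb, an immunoglobulin superfamily protein that accompanies monocarboxylate transporters, was higher in KK-F by 3.59 (adjusted p = 2.66e-09) and Parp8 by 0.49 (adjusted p = 0.000703), with 0.05 and -0.01 in males.

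Txnrd1 encodes the cytosolic thioredoxin reductase, a selenoprotein that passes electrons from NADPH to thioredoxin, and it is a known target of the oxidant-responsive transcription factor NRF2. Its log2 levels were 6.68, 6.69 and 7.14 on the KK-M arrays, against 6.78, 7.01 and 7.07 on the C57-M arrays. On the KK-F arrays they were 7.58, 7.67 and 7.54, against 7.38, 7.15 and 7.23 on the C57-F arrays. The male ranges overlapped, with KK-M replicate 3 apart from the other KK-M arrays, whereas all 3 KK-F arrays were above all 3 C57-F arrays.

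No strain difference in Txnrd1 was called. It was -0.11 ± 0.13 in males (interval -0.39 to 0.16, adjusted p = 0.55) and 0.34 ± 0.13 in females (interval 0.07 to 0.62, adjusted p = 0.0577), and averaged over the sexes it was 0.12 ± 0.09 (interval -0.08 to 0.31, adjusted p = 0.319). Txnrd1 was called between the sexes. In the KK strain males had 1.69-fold less Txnrd1 than females (-0.76 ± 0.13, adjusted p = 0.000593), a contrast in which 7.27% of all genes were called higher and 11.6% lower. In the C57 strain all 3 male arrays also lay below the female ones, with a difference of -0.30 ± 0.13 (adjusted p = 0.0928) that was not called, in a contrast with 4.33% of genes called higher and 2.74% lower.

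The strain difference of Txnrd1 in males minus that in females was -0.46 ± 0.18 (adjusted p = 0.0971), which did not pass, whereas 16.9% of all tested genes passed for this interaction at an adjusted p under 0.05 alone. It passed under 2 of 21 alternatives, robust eBayes with an intensity trend (adjusted p = 0.0451) and without KK-M replicate 3 (-0.61, adjusted p = 0.0151). Of 4 listed X-zone markers the 2 measured, Akr1c18 and Thrb, summed to between 12.28 and 12.43 in KK-F and between 6.53 and 7.12 in KK-M. This is the contrast in which Txnrd1 was called. Akr1c18 averaged 12.27 and Thrb 8.54 in KK-F, so Akr1c18 made up most of that sum. They averaged 3.25 and 6.17 in C57-M, with Akr1c18 under the filter level. In C57 the sums were 6.31 to 6.44 in males and 8.85 to 8.95 in females. The part of the X-zone in the sex difference of Txnrd1 was not tested.

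NRF2 acts through antioxidant response elements, and the start-site windows of Txnrd1 and Gpx3 are shown to set the letters before a known NRF2 target beside those of another selenoprotein gene. RefSeq lists 3 start-site windows of 300 bases for Txnrd1 in build GRCm38.p6, the C57BL/6J reference, and 1 for Gpx3. Both strands were searched for the core of the antioxidant response element, TGACNNNGC. The GC box was searched as GGGCGG on both strands. The CCAAT box was searched by the letters of its name on both strands, and all matches are in capitals. The second window of Txnrd1, at chr10:82858956-82859255 on the plus strand, is:
Txnrd1: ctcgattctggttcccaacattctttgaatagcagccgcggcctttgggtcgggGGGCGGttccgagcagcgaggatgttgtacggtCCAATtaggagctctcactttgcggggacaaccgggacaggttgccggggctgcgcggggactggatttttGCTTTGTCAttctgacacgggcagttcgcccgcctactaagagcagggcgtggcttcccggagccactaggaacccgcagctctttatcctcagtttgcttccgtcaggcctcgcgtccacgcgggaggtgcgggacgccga
The window of Gpx3, at chr11:54902604-54902903 on the plus strand, is:
Gpx3: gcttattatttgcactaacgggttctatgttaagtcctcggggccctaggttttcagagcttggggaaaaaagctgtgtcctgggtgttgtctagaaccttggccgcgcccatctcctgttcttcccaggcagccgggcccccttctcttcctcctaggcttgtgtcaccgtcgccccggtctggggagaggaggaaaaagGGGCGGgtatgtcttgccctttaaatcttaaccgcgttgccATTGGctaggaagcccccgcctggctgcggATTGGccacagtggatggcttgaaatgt

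The Txnrd1 window held 1 match to the response element core, on the minus strand at position -92 from the start site (GCTTTGTCA as read on the plus strand), 1 GC box at -196 and 1 CCAAT box at -163. The other windows of Txnrd1 held none of the 3 motifs. In the Gpx3 window the core had no match, the GC box stood at -49 and CCAAT stood on the minus strand at -8 and 22. Among 32851 windows of the same length, 12.4% held the response element core, 35.7% a GC box and 37.4% a CCAAT box. A match describes the letters and not binding by a factor.

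Gpx3 encodes the secreted glutathione peroxidase of plasma, a selenoprotein made mainly in kidney. Its log2 levels were 6.18, 6.23 and 6.24 on the KK-M arrays, against 6.63, 6.45 and 6.48 on the C57-M arrays. On the KK-F arrays they were 6.87, 6.51 and 6.57, against 6.56, 6.49 and 6.54 on the C57-F arrays. The KK-M arrays were low, below every other array, while the other 3 groups overlapped one another.

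The strain difference in Gpx3 was -0.30 ± 0.10 in males (1.23-fold lower in KK-M, interval -0.51 to -0.09, adjusted p = 0.0349), which was under the fold threshold. In females it was 0.12 ± 0.10 (interval -0.10 to 0.33, adjusted p = 0.419), and averaged over the sexes -0.09 ± 0.07 (interval -0.24 to 0.06, adjusted p = 0.303). KK-M differed from KK-F by -0.43 ± 0.10 (adjusted p = 0.00513), again under the fold threshold, and C57-M differed from C57-F by -0.01 ± 0.10 (interval -0.23 to 0.20, adjusted p = 0.937). The test of the strain difference in males against that in females gave -0.42 ± 0.14 (adjusted p = 0.0573) and did not pass. It passed under 3 of 21 alternatives, a filter on a mean of 5 (adjusted p = 0.0351), robust eBayes with an intensity trend (adjusted p = 0.0439) and without KK-F replicate 2 (-0.49, adjusted p = 0.0435), and was negative under all 21. Without KK-F replicate 2 the KK-M v KK-F difference was called (-0.50, adjusted p = 0.0043). Skeletal muscle markers summed to between 9.29 and 9.61 in KK-M, the group low in Gpx3, and to at most 7.06 on any array of the other groups, and their part was not tested. Of 6 measured kidney tubule markers 1 had a group mean of at least 4, Aqp2, and the list summed to between 6.21 and 6.58 in KK-M, 6.10 and 6.28 in KK-F, 6.12 and 6.26 in C57-M and 6.19 and 6.34 in C57-F, ranges that overlapped.

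**Figure D2:**
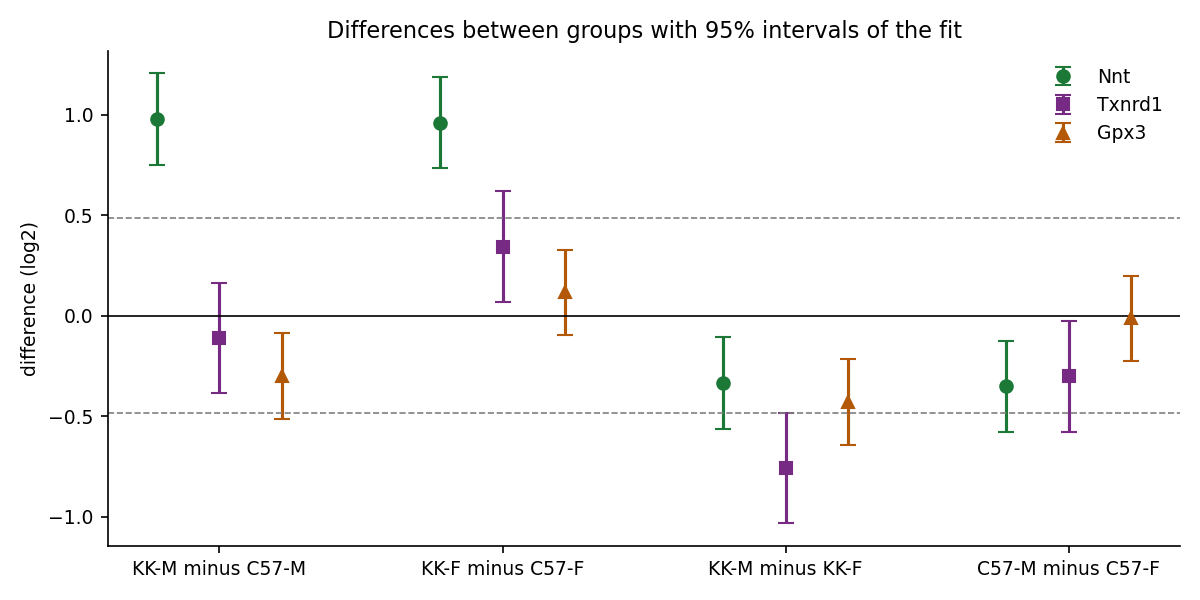
Log2 differences (y axis) of Nnt (circles), Txnrd1 (squares) and Gpx3 (triangles) in the 4 contrasts between groups (x axis), with whiskers for the 95% interval of the fit and dashed lines at the threshold of 1.4-fold. Nnt exceeds the line in both strain contrasts, and Txnrd1 exceeds it in KK-M minus KK-F.

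Over the 12 arrays the members followed different patterns. Pearson's r was 0.46 between Nnt and Txnrd1, 0.63 between Txnrd1 and Gpx3, and 0 between Nnt and Gpx3, as a description of 12 arrays that share 4 pools. The tested genes whose levels were most like those of Nnt were Dgkd, a diacylglycerol kinase (r = 0.956), Mcrip1 (0.952), Trappc9, a part of a vesicle tethering complex (0.939), and Dst, the cytoskeletal linker dystonin (0.935). For Txnrd1 they were Oplah, which opens the ring of 5-oxoproline in glutathione turnover (r = 0.951), Azin1, an inhibitor of antizyme in polyamine synthesis (0.922), Dcaf11 (0.92) and Jarid2, a partner of the Polycomb repressive complex (0.914). Those most like Gpx3 were Cyth1 (r = 0.913), the aminopeptidase gene Npepps (0.897), Papolg (0.891) and Pdcl3 (0.89). Each was picked as the best of 4047 genes, so the size of r is a description.

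Most other redox genes were not called by strain, and those that were called went both ways. The lists of NADPH supply, the thioredoxin system, peroxide and superoxide removal, glutathione synthesis and recycling, NRF2 with its known targets, and selenoproteins held 142 genes besides the members. Of these 45 were measured and 39 tested. The table analysed was partial, with nearly all matched probesets on chromosomes 1 and 10 to 15, so most listed genes could not be examined. In males 1 was higher in KK-M (2.56%, against 7.05% of all genes) and 6 were lower (15.4%, against 13.4%), and 32 were not called. In females 4 were higher in KK-F (10.3%, against 9.56%) and 6 lower (15.4%, against 9.06%). The 6 included Dio2, which passed the filter on low values only through C57-F, so its direction was partly fixed by the filter. The median difference of the 39 was -0.12 in males and -0.10 in females, where those of all genes were -0.07 and 0.03. Counts at an unadjusted p under 0.05, here and below, have no share of all genes beside them. Averaged over the sexes 0 were called higher (0%, against 6.84% of all genes) and 3 lower in KK (7.69%, against 8.63%) with limma (Nampt, Nxn and Gpx8; 10 higher and 17 lower at an unadjusted p under 0.05), with a median of -0.14 against -0.01 over all genes. Between the sexes 3 of the 39 were higher and 8 lower in KK-M v KK-F (7.69% and 20.5%, against 7.27% and 11.6% of all genes), and 3 were higher and 4 lower in C57-M v C57-F (7.69% and 10.3%, against 4.33% and 2.74%).

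**Figure D3:**
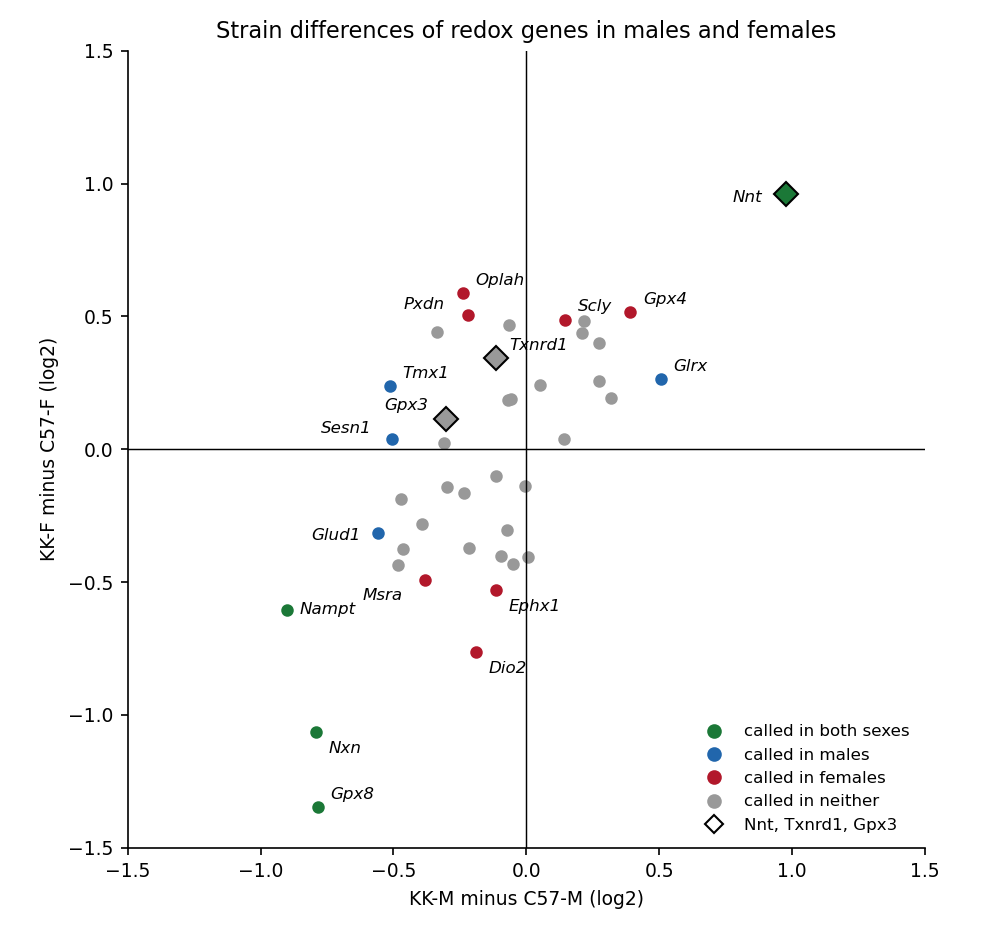
Strain difference of each tested redox gene in males (x axis, KK-M minus C57-M, log2) and in females (y axis, KK-F minus C57-F, log2), coloured by where it was called, with diamonds for Nnt, Txnrd1 and Gpx3. Nnt stands alone at the upper right, and Nampt, Nxn and Gpx8 at the lower left were called lower in KK in both sexes.

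Of 27 listed genes of NADPH supply 11 were measured and 10 tested, Nnt included. Nnt was the only one called higher in KK in either sex, and Nampt, the rate-limiting enzyme of NAD salvage, was lower in KK in both. At an unadjusted p under 0.05 with limma, 1 was higher and 3 lower in KK-M, and 3 higher and 4 lower in KK-F, Nnt counted. The other genes higher in KK-F were Nadk2 (0.47, adjusted p = 0.00157) and Idh1 (0.44, adjusted p = 0.00532), both under the fold threshold. Nampt read 6.92, 6.90 and 6.70 on the KK-M arrays, against 7.83, 7.76 and 7.64 on the C57-M arrays. In females it read 8.09, 8.26 and 7.99 on the KK-F arrays, against 8.75, 8.68 and 8.72 on the C57-F arrays. Neither pair of groups overlapped, and the strain differences were -0.90 ± 0.10 in males (adjusted p = 1.78e-05) and -0.60 ± 0.10 in females (adjusted p = 0.000412). Nampt was also lower in males than in females in both strains, by -1.27 ± 0.10 in KK (adjusted p = 8.95e-07) and -0.98 ± 0.10 in C57 (adjusted p = 8.65e-06).

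Glud1, the mitochondrial glutamate dehydrogenase, averaged 7.46 ± 0.12 in KK-M and 8.02 ± 0.07 in C57-M (SD, n = 3 each), a difference of -0.56 ± 0.09 (adjusted p = 0.000511) that fell under the fold threshold after renewed quantile normalization (-0.42). The female difference of Glud1 was -0.32 ± 0.09 (adjusted p = 0.0195), under the fold threshold. Idh1, the cytosolic NADP-dependent isocitrate dehydrogenase, was low in KK-M and high in KK-F. It averaged 9.71 ± 0.10 in KK-M and 10.47 ± 0.18 in KK-F, a called difference of -0.77 ± 0.10 (adjusted p = 0.000104), while its C57 means were 10.04 ± 0.05 in males and 10.03 ± 0.10 in females. Shmt1, which feeds the cytosolic folate cycle, followed sex, with 5.33 ± 0.28 in KK-M and 6.13 ± 0.14 in KK-F (-0.81 ± 0.13, adjusted p = 0.000493). In C57 it averaged 5.33 ± 0.11 in males and 6.27 ± 0.11 in females (-0.94 ± 0.13, adjusted p = 0.000158).

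In the thioredoxin system 15 genes were tested. In males Glrx was called higher in KK (against 7.05% of all genes) and 3 lower (Nxn, Tmx1 and Sesn1, against 13.4%). At an unadjusted p under 0.05 with limma 1 was higher and 9 lower in KK-M. In females 0 were called higher (against 9.56%) and 2 lower in KK-F with limma (Nxn and Msra, against 9.06%). At an unadjusted p under 0.05 with limma 2 were higher and 6 lower in KK-F. The list's median difference was -0.24 in males and -0.17 in females, where those of all genes were -0.07 and 0.03. Nxn encodes nucleoredoxin, a thioredoxin relative that also binds Dishevelled of the Wnt pathway. It read 6.03, 5.87 and 5.65 on the KK-M arrays, against 6.49, 6.61 and 6.82 on the C57-M arrays. In females it read 5.96, 5.90 and 5.82 on the KK-F arrays, against 6.84, 6.93 and 7.11 on the C57-F arrays. All 6 KK values were below all 6 C57 values, the reverse of Nnt, with differences of -0.79 ± 0.12 in males (adjusted p = 0.000245) and -1.07 ± 0.12 in females (adjusted p = 2.2e-05).

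Glrx, the cytosolic glutaredoxin, averaged 6.69 ± 0.18 in KK-M and 6.19 ± 0.11 in C57-M, a 1.42-fold difference (0.51 ± 0.12, adjusted p = 0.00581) that fell under the fold threshold when C57-M replicate 3, KK-M replicate 1 or KK-M replicate 2 was left out. Msra, a methionine sulfoxide reductase, averaged 6.21 ± 0.06 in KK-F and 6.70 ± 0.08 in C57-F (-0.49 ± 0.08, adjusted p = 7e-04), and it fell under the fold threshold without C57-F replicate 1 or KK-F replicate 3. The male difference of Msra was -0.38 ± 0.08 (adjusted p = 0.00394), under the fold threshold. Sesn1, sestrin 1, averaged 6.31 ± 0.32 in KK-M and 6.81 ± 0.09 in C57-M (-0.51 ± 0.16, adjusted p = 0.0334), and without KK-M replicate 3, C57-M replicate 1 or C57-M replicate 2 it was not called (-0.32, -0.50 and -0.46), nor after renewed quantile normalization (-0.38) or with every probeset tested (adjusted p = 0.083). Between the sexes Glrx5, a mitochondrial glutaredoxin of iron-sulfur cluster assembly, was lower in males in both strains, by -1.02 ± 0.10 in KK (adjusted p = 5.83e-06) and -0.77 ± 0.10 in C57 (adjusted p = 6.55e-05). Its probesets disagreed, and with their mean the KK difference was -0.45 and no longer called.

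Of 20 listed enzymes that remove peroxides and superoxide 7 were measured and 4 tested, Gpx3, Gpx4, Gpx8 and Pxdn. No superoxide dismutase, catalase or peroxiredoxin was among those tested. Gpx8, a glutathione peroxidase of the endoplasmic reticulum membrane, was lower in KK in both sexes. It read 8.78, 8.48 and 8.70 on the KK-M arrays, against 9.43, 9.57 and 9.31 on the C57-M arrays. In females it read 8.14, 8.004 and 8.07 on the KK-F arrays, against 9.34, 9.47 and 9.44 on the C57-F arrays. The groups did not overlap, and the differences were -0.78 ± 0.10 in males (adjusted p = 7.05e-05) and -1.35 ± 0.10 in females (adjusted p = 7.11e-07). Adipocyte markers were lower in KK too, as were Nampt and Nxn. Of 6 tested adipocyte markers 4 were called lower in KK-M and 6 in KK-F, Gpd1 among them at -0.77 in males and -1.33 in females, and the list summed to 9.69 to 9.76 in KK-M and 8.94 to 9.07 in KK-F, against 10.12 to 10.30 in C57-M and 10.07 to 10.11 in C57-F. The 2 markers not called in males were Slc2a4, at 6.64 in KK-M and 6.23 in C57-M, and Trarg1, at 7.58 and 7.60. Within KK the adipocyte sum was lower in females than in males, where Gpx8 was also lower in females and Nampt was higher. The part of adipocytes in these differences was not tested.

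Gpx4, which reduces lipid hydroperoxides in membranes, read higher on the KK than on the C57 arrays within each sex. It averaged 6.57 ± 0.07 in KK-F and 6.05 ± 0.12 in C57-F, a difference of 0.52 ± 0.09 (adjusted p = 0.000639) that was called. Male means were 6.16 ± 0.08 in KK-M and 5.77 ± 0.05 in C57-M. Their difference of 0.39 ± 0.09 (adjusted p = 0.00428) was under the fold threshold and not called. The female call was lost under renewed quantile normalization (0.47) and median centring (0.47), and without KK-F replicate 1, C57-F replicate 1 or C57-F replicate 2 (0.48, 0.48 and 0.48). Pxdn, the peroxidase of the extracellular matrix that crosslinks collagen IV, averaged 6.70 ± 0.05 in KK-F and 6.19 ± 0.27 in C57-F (0.51 ± 0.13, adjusted p = 0.00982), and its call was lost under both scalings as well (0.47 and 0.46) and without KK-F replicate 1 or C57-F replicate 2 (0.48 and 0.36).

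**Figure D4:**
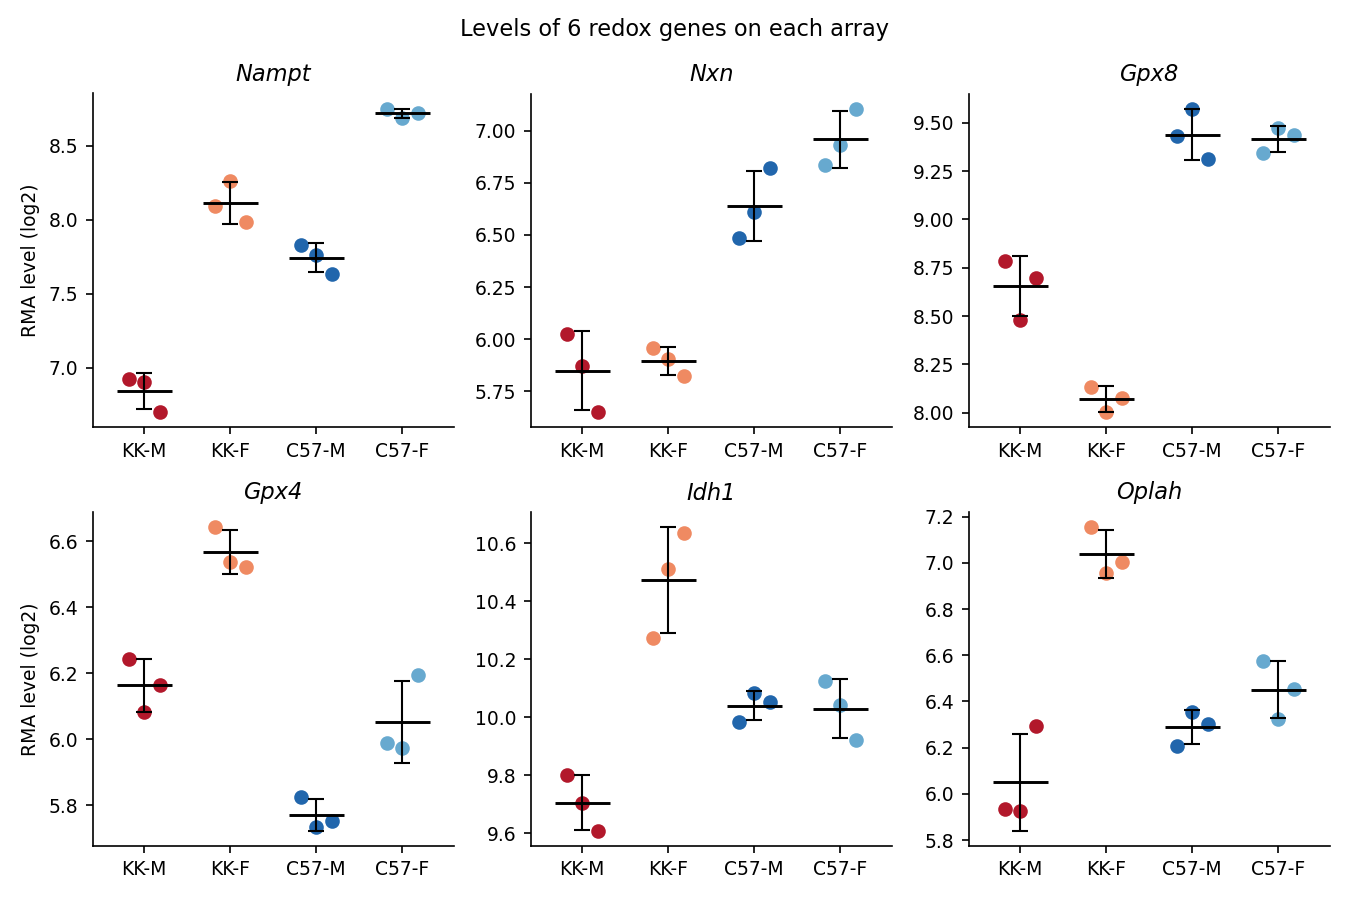
Log2 RMA levels (y axis) of Nampt, Nxn, Gpx8, Gpx4, Idh1 and Oplah on each array by group (x axis), with points for arrays, a bar for the mean and whiskers for the SD of 3 arrays. The y axes differ and do not start at 0, and Nxn and Gpx8 are low on all KK arrays while Idh1 and Oplah are high on the KK-F arrays.

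Of 23 listed genes of glutathione synthesis and recycling 4 were measured and 3 tested. Oplah, the gene nearest to Txnrd1 in pattern, averaged 7.04 ± 0.10 in KK-F and 6.45 ± 0.12 in C57-F (0.59 ± 0.11, adjusted p = 0.0015), and 6.05 ± 0.21 in KK-M and 6.29 ± 0.07 in C57-M, which was not called. KK-M was below KK-F by -0.99 ± 0.11 (adjusted p = 2.75e-05). The X-zone sum was also higher in KK-F than in every other group, as were Oplah and Idh1 on their arrays, and its part was not tested. Ggt5, a gamma-glutamyltransferase that acts on leukotriene C4, was higher in males, by 0.63 ± 0.13 in KK (adjusted p = 0.00306) and 0.53 ± 0.13 in C57 (adjusted p = 0.0092), where it was not called without C57-M replicate 2 (0.43). Of 32 genes of the NRF2 list 5 were measured and tested. By strain 0 of these were called in males with limma (1 higher and 1 lower at an unadjusted p under 0.05) and 1 in females. This was Ephx1, microsomal epoxide hydrolase, with 8.82 ± 0.08 in KK-F and 9.35 ± 0.07 in C57-F (-0.53 ± 0.08, adjusted p = 0.000402). Ephx1 was not called after renewed quantile normalization (-0.40). In females 3 of the 5 were higher and 2 lower in KK-F at an unadjusted p under 0.05. The higher ones were Mafg at 0.44 and Maff at 0.40, both small Maf partners of NRF2, and Txnrd1 at 0.34. The lower ones were Ephx1 and Nqo2, the latter at -0.44 (adjusted p = 0.0066). In males Nqo2 was lower in KK too (-0.48, adjusted p = 0.00353), and both its differences were under the fold threshold. The list's median difference was -0.11 in males and 0.34 in females, where those of all genes were -0.07 and 0.03.

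Of 33 listed selenoproteins and genes of selenium supply 11 were measured and 9 tested, Txnrd1 and Gpx3 included. By strain 0 were called in males with limma, where 4 were higher and 2 lower at an unadjusted p under 0.05, and in females Gpx4 and Scly were higher and Dio2 lower in KK-F. Scly, the lyase that frees selenium from selenocysteine, averaged 6.59 ± 0.15 in KK-F and 6.10 ± 0.11 in C57-F (0.49 ± 0.12, adjusted p = 0.00641), a call lost under renewed quantile normalization (0.44), median centring (0.44), and without KK-F replicate 1 or C57-F replicate 3 (0.41 and 0.42). Dio2, a thyroid hormone deiodinase, averaged 3.71 ± 0.15 in KK-F and 4.48 ± 0.21 in C57-F. With 3.68 in KK-M and 3.86 in C57-M it passed the filter only through C57-F, so its difference is given as levels alone. The list's median difference was 0.15 in males and 0.26 in females, where those of all genes were -0.07 and 0.03.

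Of 20 listed genes of steroidogenesis, whose hydroxylases draw on NADPH, 3 were measured and tested. Cyp11b1, the mitochondrial 11-beta-hydroxylase that makes corticosterone, averaged 12.46 ± 0.02 in KK-M and 12.59 ± 0.03 in C57-M. In females it averaged 12.47 ± 0.06 in KK-F and 12.83 ± 0.04 in C57-F. Its strain difference was -0.13 ± 0.07 in males (adjusted p = 0.194) and -0.36 ± 0.07 in females (adjusted p = 0.00225). The female difference passed the adjusted p but was under the fold threshold, so Cyp11b1 was called in neither sex. Cyp11b2, aldosterone synthase, averaged 10.10 ± 0.08 in KK-M and 9.10 ± 0.16 in KK-F, 0.997 ± 0.09 higher in males (adjusted p = 5.03e-06). It was also called higher in males in C57, with 10.22 ± 0.02 in C57-M and 9.37 ± 0.07 in C57-F (0.85 ± 0.09, adjusted p = 1.99e-05). By strain Cyp11b2 differed by -0.13 ± 0.09 in males (adjusted p = 0.34) and -0.28 ± 0.09 in females (adjusted p = 0.0385), both under the fold threshold. Hsd11b1, which regenerates active glucocorticoid with NADPH in the endoplasmic reticulum, averaged 4.76 ± 0.15 in KK-M and 5.62 ± 0.21 in C57-M (-0.85 ± 0.12, adjusted p = 0.000199). In females it averaged 4.70 ± 0.07 in KK-F and 5.37 ± 0.18 in C57-F (-0.66 ± 0.12, adjusted p = 0.00128). Hsd11b1 is abundant in liver and fat, whose marker sums were also lower in KK as given above. Of 12 tested hepatocyte markers 9 were called lower and 1 higher in KK-M, and 9 lower and 0 higher in KK-F. The part of liver and fat in the Hsd11b1 differences was not tested.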

How the data were processed

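Values were log2 signals of probesets as the authors deposited them, made by RMA (background correction, quantile normalization and probe summarization) in Partek, and were used unchanged. The table analysed here was partial: of 16378 probesets 7358 had 1 gene symbol in GEO's platform annotation, 456 several (not used) and 8564 none, and 7277 of 7310 matched to RefSeq lay on chromosomes 1 and 10 to 15. The genome build of the probesets is not given in the sources used here. For 284 genes with several probesets the brightest was kept, and 4414 of 6986 genes, those with a group mean of 4 (log2) or more, were tested.

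Group means were fitted to the 12 arrays with limma 3.58.1 in R 4.3.3 (8 residual and 4.84 prior degrees of freedom), tested on simulated data. P-values were adjusted by Benjamini-Hochberg over the 4 pairwise contrasts at once, and apart from these for the mean strain difference and for the interaction. Calls needed 1.4-fold (0.485 log2) and an adjusted p under 0.05, and for the interaction the p alone. Exact permutation of 3 against 3 arrays cannot go below p = 0.1. The number of arrays limits the precision on the spread between arrays, and with 1 pool per group the spread between mice is not measured.

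The members and gene lists were chosen with earlier results of these data known. Named list genes were those called by strain (at most the 4 largest per list) or by sex (at most the 3 largest per list and contrast). Tmx1, Txn2, Nadk2, Nqo2, Mafg, Maff, Gpd1, Slc2a4, Trarg1, Akr1c18, Thrb and the neighbours of Nnt were named outside this rule after their values were seen. Alternatives were other filters, scalings, variance models, uses of probesets and adjustments, a replicate block, no fold threshold, a fit on 4 pool means, and leaving out each array.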

Additional observations from a re-analysis of the deposited data

Results flagged for a closer look

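For 9 of the 39 redox genes other than the members (23.1%, against 16.9% of all tested genes) the strain difference itself differed between the sexes, by a test of the interaction (strain difference in males minus that in females, adjusted p under 0.05 with limma). Negative values were found for Oplah (-0.83, adjusted p = 0.0037), Idh1 (-0.78, adjusted p = 0.00307), Tmx1 (-0.75, adjusted p = 0.00596), Pxdn (-0.72, adjusted p = 0.0177) and Nadk2, the mitochondrial NAD kinase (-0.53, adjusted p = 0.013). Positive values were found for Gpx8 (0.56, adjusted p = 0.0171), which was lower in KK in both sexes and more so in females, for Ephx1 (0.42, adjusted p = 0.0309) and for Txn2, the mitochondrial thioredoxin (0.38, adjusted p = 0.0472). Dio2 (0.58, adjusted p = 0.0472) passed the filter on low values only through C57-F, which partly fixed its value, and without it 8 of 38 passed (21.1%). The call was lost under 14 of 19 alternatives for Dio2, 13 of 21 for Txn2, 10 of 21 for Ephx1 and 1 of 21 each for Pxdn and Nadk2, and under none of 21 for Oplah, Idh1, Tmx1 and Gpx8. X-zone markers summed to between 12.28 and 12.43 in KK-F and at most 8.95 in every other group. Skeletal muscle markers summed to 9.29 to 9.61 in KK-M and at most 7.06 in every other group. The 5 macrophage markers summed to 10.14 to 10.35 in KK-M and 10.25 to 10.65 in KK-F, against 10.80 to 10.89 in C57-M and 9.81 to 9.92 in C57-F. Of these 5, 3 were called lower in KK-M, and 3 higher and 1 lower in KK-F. The part of these cells in the interactions was not tested.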

How the results depend on the processing

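The strain differences of Nnt kept their call under all 23 alternatives, at 0.87 to 1.11 in males, 0.91 to 1.02 in females and 0.92 to 1.06 averaged over the sexes, where the highest adjusted p (0.0146) came from the fit on the 4 pool means with 1 residual degree of freedom. Txnrd1 in KK-M v KK-F stayed called at -0.91 to -0.64. With no fold threshold, Nnt was also called between the sexes of KK (-0.33) and of C57 (-0.35), and Gpx3 in KK-M v C57-M (-0.30) and KK-M v KK-F (-0.43). Leaving out 1 array moved Gpx3 in KK-M v KK-F between -0.50 and -0.32, called without KK-F replicate 2. Differences near 0 changed sign without being called: Txnrd1 in KK-M v C57-M was 0.0155 under renewed quantile normalization, Gpx3 in C57-M v C57-F was 0.0257 under median centring and between -0.0682 and 0.0241 leaving out 1 array, and the interaction of Nnt was between -0.0884 and 0.1192 leaving out 1 array.

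The counts of other redox genes depended on the fold threshold. Without it 3 were higher and 12 lower in KK-M v C57-M, and 9 were higher and 14 lower in KK-F v C57-F. The share of all genes without a fold threshold is not given here, so these counts cannot be set against it. Renewed quantile normalization gave 3 lower in males and 2 higher in females, and median centring 1 higher in females. Leaving out 1 array gave 0 to 1 higher and 5 to 9 lower in males, and 3 to 6 higher and 5 to 7 lower in females. Renewed quantile normalization moved the median of all genes by 0.12 in KK-M v KK-F and by less than 0.1 in the other contrasts. Of 52 called results of the other named genes 34 held under every alternative run. The replicate block left every call of the members unchanged (Nnt 0.98 in males and 0.96 in females) and lost the interaction calls of Txn2 and Dio2, and deviations of same-numbered arrays correlated between -0.10 and 0.12, so the numbers were not taken to pair the arrays. The cause of these changes was not tested.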
